A study of Mus musculus with 7 samples.

Results

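The 5 ionotropic kainate receptor genes Grik1 to Grik5 and the 2 auxiliary subunit genes Neto1 and Neto2 were followed in RNA from mouse hippocampus. They were found by matching Ensembl gene IDs to their symbols in GENCODE M21 (GRCm38, the assembly of mm10), which gave 7 of 39017 rows of the count table. All 7 passed the filter on low counts. Translating ribosome affinity purification (TRAP) pulls down EGFP-tagged ribosomes from a chosen cell class together with the RNA on them. The groups were 3 bound libraries (pulled-down RNA, titles GAD_ctrl) and 4 unbound libraries (RNA that was not pulled down, titles UBS for replicates 1 and 2 and UBGS for replicates 3 and 4). The series describes mice that were GAD2 cre+ and L10-EGFP+ without giving a separate genotype for either group, and 2 hippocampi went into each TRAP sample. Gad2-driven Cre makes the pull-down a model of GABAergic cells only as far as Cre acted in them. Strain, age, sex, any treatment of the animals and the meaning of the title series are not given in the sources used. The treatment label reads only bound or unbound. No label states that the libraries came from separate animals, so a p-value here weighs a difference against the spread of libraries alone, which may be technical.

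Kainate receptors are glutamate-gated cation channels made of 4 subunits. Grik1, Grik2 and Grik3 encode GluK1, GluK2 and GluK3, the low-affinity subunits, which can form channels on their own. Grik4 and Grik5 encode GluK4 and GluK5, the high-affinity subunits, which form channels only together with a low-affinity one. Neto1 and Neto2 are single-pass membrane proteins that bind the receptor, slow its kinetics and change its agonist affinity. In the hippocampus the receptors are known from mossy fibre synapses onto CA3 pyramidal cells, where GluK2, GluK4, GluK5 and Neto1 act, and from interneurons, where GluK1 is a known subunit.

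The 5 subunits are related genes, and the stretches below show how far their coding sequences resemble each other where all 5 are most alike. This stretch of 90 coding bases covers the third membrane segment, which lines the channel gate. Each is given 5′ to 3′ from the GENCODE M21 transcript with the longest coding sequence, and capitals mark bases that differ from Grik2.
Grik1: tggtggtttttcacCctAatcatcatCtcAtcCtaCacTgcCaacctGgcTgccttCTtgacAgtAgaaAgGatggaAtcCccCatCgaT
Grik2: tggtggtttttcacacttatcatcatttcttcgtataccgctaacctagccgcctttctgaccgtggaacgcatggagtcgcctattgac
Grik3: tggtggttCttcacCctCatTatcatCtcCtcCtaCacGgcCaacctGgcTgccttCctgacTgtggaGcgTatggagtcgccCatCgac
Grik4: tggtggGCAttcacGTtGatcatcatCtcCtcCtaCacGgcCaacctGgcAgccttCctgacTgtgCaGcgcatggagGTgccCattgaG
Grik5: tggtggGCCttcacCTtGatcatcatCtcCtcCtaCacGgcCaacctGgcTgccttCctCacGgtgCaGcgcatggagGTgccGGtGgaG

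Even here Grik1, Grik3, Grik4 and Grik5 differ from Grik2 at 21, 18, 22 and 25 of the 90 bases. On GRCm38 the stretches lie at chr16:87935976-87936065 for Grik1 (minus strand), chr10:49240657-49240746 for Grik2 (minus strand) and chr4:125694012-125694101 for Grik3 (plus strand), each inside 1 coding exon. Those of Grik4 (chr9:42543836-42547568, minus strand) and Grik5 (chr7:25015886-25022442, minus strand) are split over 2 exons. Over the whole coding sequence Grik1, Grik2 and Grik3 were 71.6% to 72.3% identical in pairs and Grik4 and Grik5 71.3%, while pairs across the affinity classes were 57.6% to 62.8% identical. Neto1 and Neto2 were 67.1% identical. The longest run of bases shared by transcripts of 2 members was 46, in Grik2 and Grik3. The sources used here give neither the read length nor how multi-mapped reads were handled.

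Grik1 (ENSMUSG00000022935) lies on chromosome 16 from 87895900 to 88290265, Grik2 (ENSMUSG00000056073) on chromosome 10 from 49094833 to 49788766 and Grik3 (ENSMUSG00000001985) on chromosome 4 from 125490700 to 125714173. Grik4 (ENSMUSG00000032017) lies on chromosome 9 from 42518135 to 42944493, Grik5 (ENSMUSG00000003378) on chromosome 7 from 25009849 to 25072346, Neto2 (ENSMUSG00000036902) on chromosome 8 from 85636588 to 85700924 and Neto1 (ENSMUSG00000050321) on chromosome 18. All 7 are protein-coding, and counts cover all exons of a gene, so splice forms and RNA editing cannot be read from them. Exons of other annotated genes overlap 2.62% of the exon length of Neto1, 0.99% of Grik4 and 0.326% of Neto2, and none of the others.

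Library totals ranged from 38690380 to 51953811 counts, and the members held 177 to 18974 counts per library. Mitochondria-encoded RNA took 0.0867% to 0.123% of the counts in bound and 28.5% to 32.9% in unbound libraries. Gad2, which drives the Cre, averaged 745.5 ± 20.3 CPM (counts scaled to a common library size by TMM) in bound and 149.4 ± 42.1 CPM in unbound libraries. Within the unbound group Gad2 stood at 189.6 and 182.0 CPM in UBS and at 111.7 and 114.4 CPM in UBGS libraries. Its log2 fold change was 2.00 against UBS libraries alone and 2.74 against UBGS libraries alone. All 10 GABAergic markers were higher in bound libraries, with a summed level of 5161 to 6894 CPM against 428.7 to 535.4 CPM in unbound libraries. Of 10 excitatory neuron markers 9 were lower (933.8 to 1095 CPM in bound and 4211 to 6285 CPM in unbound libraries), and 4 of 5 dentate granule cell markers were lower (131.9 to 162.9 and 406.3 to 419.5 CPM). Astrocyte markers (5 of 6 lower, 224.7 to 245.2 and 1893 to 2802 CPM), oligodendrocyte markers (6 of 6 lower, 329.1 to 402.6 and 1189 to 1376 CPM), precursor markers (5 of 5 lower, 10.7 to 14.7 and 105 to 118.4 CPM) and endothelial markers (2 of 4 lower, 3.28 to 8.69 and 10.2 to 13.3 CPM) were lower too, as far as those counts go. Microglia markers were all higher, 6 of 6, at 148.9 to 453.6 CPM in bound libraries, with bound replicate 2 the highest, against 55.3 to 77.4 CPM in unbound libraries. No marker was at 0 in any bound library, and the part of these cell types in the results below was not tested. In such bulk RNA, fewer cells of a type and less RNA per cell cannot be told apart.

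The kainate receptor genes did not move as a block. Grik1 and Grik3 were 5.28-fold and 3.46-fold higher in bound libraries, Grik4 was 3.40-fold lower, and Grik2, Grik5 and Neto1 were not called, while Neto2 was just past the threshold. Of the 7 genes 3 were higher and 1 was lower (edgeR quasi-likelihood test, Benjamini-Hochberg adjusted p under 0.05 over 19563 genes), where 61.7% of all genes were called, 31% higher and 30.7% lower. The median log2 fold change of the 7 was 0.17, and that of all genes was −0.01. With a change of at least 2-fold added to the same threshold, Grik1 and Grik3 remained higher and Grik4 lower, where 14.6% of all genes were higher and 17.8% lower. Tested against a minimum of 1.5-fold, which 35% of all genes passed, Grik1, Grik3 and Grik4 passed. The 2 groups were fully separated for 5 of the 7, where the share over all genes was 63.3%. Scaling bears on the small differences. When libraries were scaled to their totals alone, the all-gene median shifted to 0.43, the share of calls that were higher was 71.5% (50.3% with TMM), and 6 members were called higher and 1 lower, where 47.5% of all genes were higher and 18.9% lower, so that the signs of Grik2 and Grik5 turned.

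**Figure D1:**
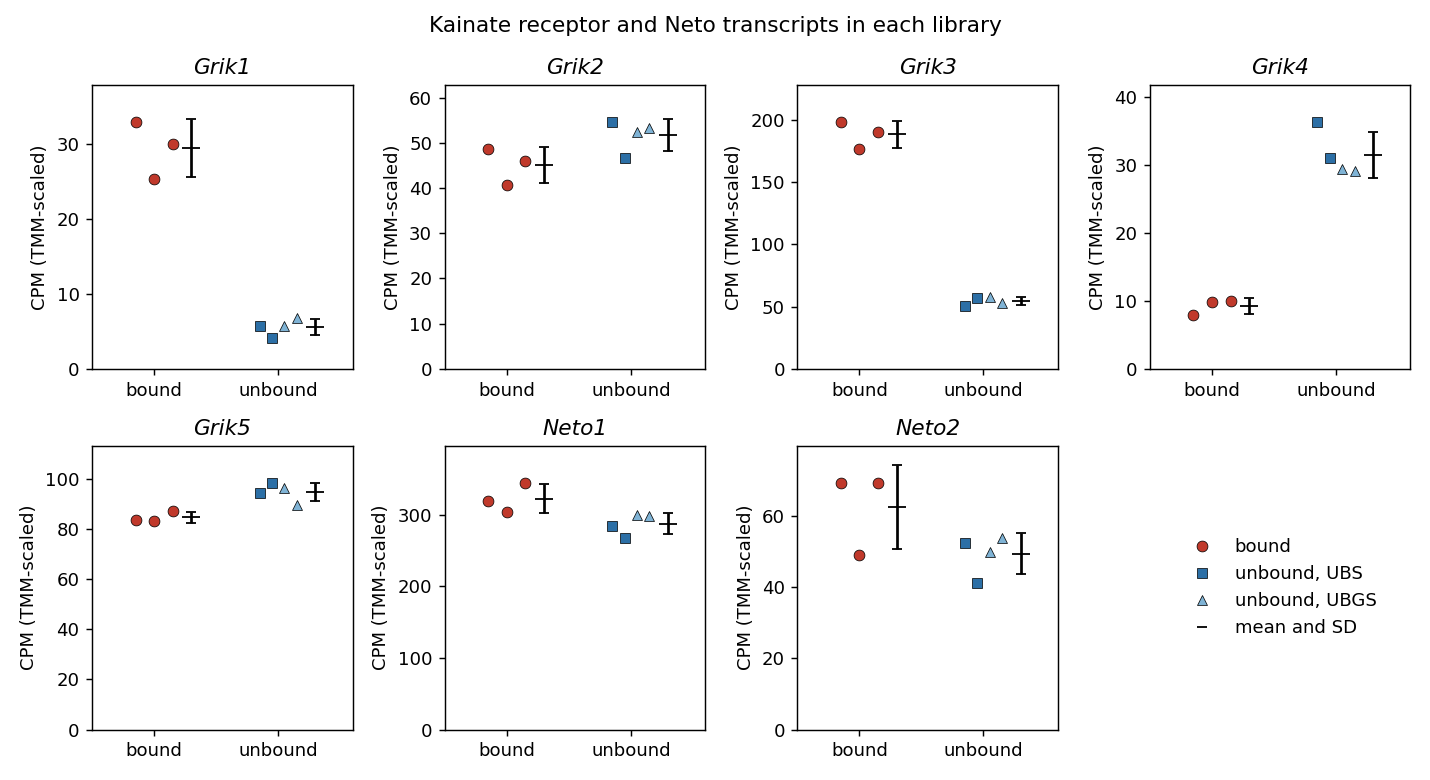
Level of each gene in CPM (TMM-scaled, axis from 0) in the 3 bound and 4 unbound libraries, with the mean and SD beside the points and the unbound title series by symbol. Grik1 and Grik3 were higher in every bound library than in any unbound one and Grik4 was lower, while Grik2 and Neto2 overlapped between the groups.

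Among the low-affinity subunits, Grik1 had the largest fold. Grik1 stood at 33.0, 25.3 and 30.1 CPM in bound replicates 1 to 3, against 5.67, 4.14, 5.76 and 6.74 CPM in unbound replicates 1 to 4. Every bound library was at least 25.3 CPM and no unbound library exceeded 6.74 CPM. The mean was 29.5 ± 3.85 CPM over the bound libraries (SD, n = 3) and 5.58 ± 1.08 CPM over the unbound ones (SD, n = 4), giving a log2 fold change of 2.40 (SE 0.16, edgeR adjusted p = 3.5e-07). Its fold change was at or above that of 96.8% of the genes tested.

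Grik3, whose product forms channels of low glutamate sensitivity and is known from presynaptic sites, stood at 198.1, 176.6 and 190.1 CPM in bound libraries and at 50.3, 56.8, 57.4 and 53.1 CPM in unbound libraries. The groups were far apart and each was narrow. The mean was 188.3 ± 10.9 CPM over bound libraries and 54.4 ± 3.35 CPM over unbound ones (log2 1.79, SE 0.07, edgeR adjusted p = 1.1e-08), a fold change at or above that of 94.1% of genes.

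Grik2, the subunit found most widely in hippocampal principal cells, differed little. It stood at 48.7, 40.7 and 45.9 CPM in bound libraries and at 54.6, 46.6, 52.5 and 53.3 CPM in unbound libraries. Bound replicate 1 was above unbound replicate 2, so the groups overlapped. The log2 fold change was −0.20 (SE 0.09, 95% interval −0.40 to 0.00, edgeR adjusted p = 0.082), and it turned to 0.24 with library totals (edgeR adjusted p = 0.039) and to 0.41 with the trend of counts on exon length removed (edgeR adjusted p = 0.0019). The 942 protein-coding genes with 10597 to 16557 bases of exon, the range around the 13246 bases of Grik2, had a median log2 fold change of −0.58. The direction for Grik2 thus changed with the scaling and with the length correction.

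The high-affinity pair was split. Grik4, known from CA3 pyramidal cells, stood at 7.96, 9.81 and 10.004 CPM in bound libraries and at 36.3, 31.0, 29.4 and 29.1 CPM in unbound libraries. Every bound library was far below every unbound one. The mean was 9.26 ± 1.13 CPM over bound libraries and 31.4 ± 3.38 CPM over unbound ones (log2 −1.76, SE 0.13, edgeR adjusted p = 5.7e-07). Of all genes, 10.9% had a fold change as low or lower.

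Grik5, the partner subunit of most neuronal kainate receptors, stood at 83.6, 83.0 and 87.2 CPM in bound libraries and at 94.3, 98.4, 96.2 and 89.7 CPM in unbound libraries. The groups did not overlap but lay close together. The log2 fold change was −0.16 (SE 0.07, 95% interval −0.31 to −0.02), with an edgeR adjusted p of 0.052. With library totals it was 0.27 (edgeR adjusted p = 0.0073), and with DESeq2 −0.19 (DESeq2 adjusted p = 0.021). Thus no call held for Grik5 across scalings, and of the scalings only library totals turned its direction.

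**Figure D2:**
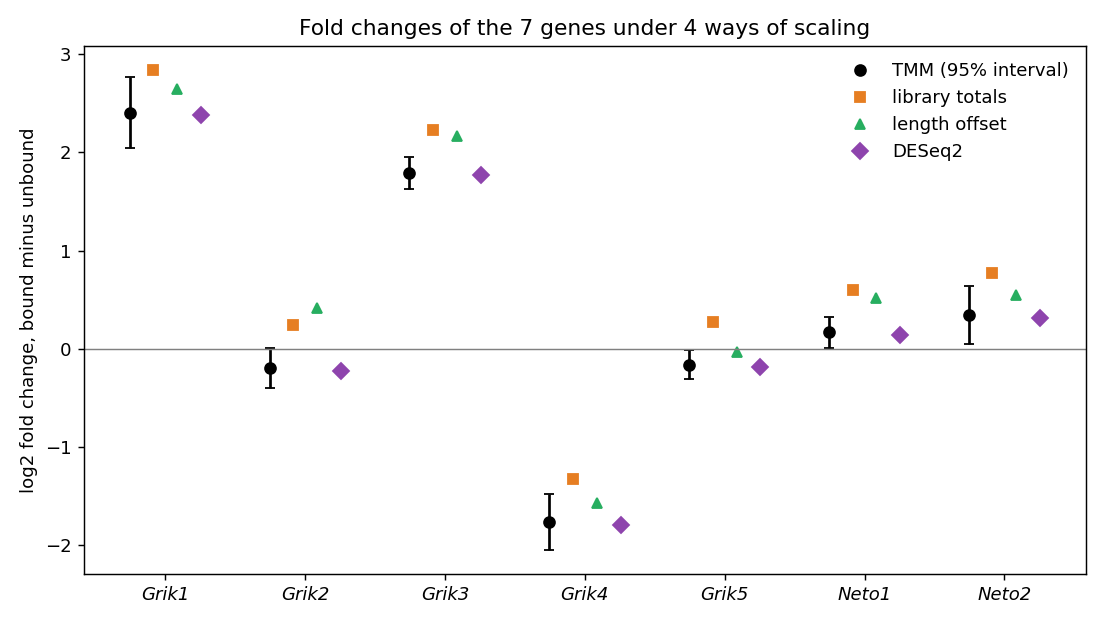
Log2 fold change (bound minus unbound) of each gene with TMM scaling (black, bar is the 95% interval), library totals, a length offset and DESeq2. Grik1, Grik3 and Grik4 kept their direction in all 4, whereas Grik2 turned with library totals and the length offset, and Grik5 with library totals.

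The Neto genes showed small differences. Neto1 was the most abundant member in counts, at 318.9, 303.8 and 344.5 CPM in bound libraries and 284.4, 267.7, 298.9 and 298.3 CPM in unbound libraries. The lowest bound library was above the highest unbound one by a small margin. The log2 fold change of Neto1 was 0.17 (SE 0.07, 95% interval 0.01 to 0.32, edgeR adjusted p = 0.06), and it was past the threshold with library totals (0.60, edgeR adjusted p = 1.6e-05) and with the length offset (0.51, edgeR adjusted p = 9.9e-05).

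Neto2 stood at 69.3, 48.9 and 69.3 CPM in bound libraries and at 52.4, 41.2, 49.99 and 53.9 CPM in unbound libraries. Bound replicates 1 and 3 were above every unbound library, and bound replicate 2 was inside the unbound range. The log2 fold change of Neto2 was 0.34 (SE 0.13, 95% interval 0.04 to 0.64, edgeR adjusted p = 0.046). Without bound replicate 1 or 3 or unbound replicate 2 or 3 it missed the threshold (0.26, 0.26, 0.27 and 0.35, edgeR adjusted p = 0.16, 0.16, 0.1 and 0.063), and without bound replicate 2 it was 0.49 (edgeR adjusted p = 0.0035). Bound replicate 2, the lowest for Neto2, was also the lowest bound library for Grik1, Grik2, Grik3, Grik5 and Neto1, and the highest for microglia markers, and the part of that was not tested.

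Levels of different genes were compared per kilobase of merged exons. In bound libraries the subunits ran, from high to low, Grik3 (20.98 ± 1.21 CPM per kilobase), Grik5 (16.4 ± 0.440), Grik1 (4.38 ± 0.573), Grik2 (3.41 ± 0.307) and Grik4 (1.55 ± 0.189, SD, n = 3). In unbound libraries the order of levels was Grik5 (18.3 ± 0.717 CPM per kilobase), Grik3 (6.06 ± 0.373), Grik4 (5.27 ± 0.566), Grik2 (3.91 ± 0.268) and Grik1 (0.830 ± 0.160, SD, n = 4). Grik4 was the lowest subunit in bound libraries and Grik1 in unbound libraries, and this held per kilobase of the longest transcript and in counts not scaled by length. In unbound libraries the levels per kilobase of Grik3 (5.60 to 6.40) and Grik4 (4.88 to 6.10) overlapped. Grik1 (3.77 to 4.91) and Grik2 (3.07 to 3.68) were close in bound libraries but did not overlap. These orders rest on the length used, since merged exons hold 6721 bases for Grik1 and 13246 for Grik2. In counts not scaled by length Grik2 was above Grik1 in every bound library. Per kilobase of the longest annotated transcript, an alternative chosen after seeing the data, Grik3 (19.7 to 22.1) and Grik5 (20.4 to 21.5) overlapped in bound libraries, and Grik2, Grik3 and Grik4 overlapped in unbound libraries. Neto1 was above all subunits in both groups, at 38.6 ± 2.46 CPM per kilobase in bound and 34.4 ± 1.76 in unbound libraries, and Neto2 stood at 10.2 ± 1.92 in bound and 8.05 ± 0.929 in unbound libraries.

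As shares of the summed length-scaled counts of the 5 subunits, Grik3 took 44.9% ± 0.789 in bound and 17.6% ± 1.08 in unbound libraries (SD, n = 3 and n = 4). Grik1 took 9.36% ± 0.827 in bound and 2.42% ± 0.511 in unbound libraries. The shares of Grik5 (35.1% ± 1.38 in bound, 53.3% ± 1.23 in unbound), Grik2 (7.28% ± 0.343 in bound, 11.4% ± 0.873 in unbound) and Grik4 (3.34% ± 0.501 in bound, 15.3% ± 1.46 in unbound) were smaller in the pull-down. No share overlapped between the groups. The size of a share depended on the length used: with the longest transcript, chosen after seeing the data, Grik3 took 37.3% in bound and 14.5% in unbound libraries and Grik5 37.1% in bound and 55.9% in unbound libraries. With either other measure the groups still did not overlap for any subunit. Shares of a fixed whole cannot move independently of each other.

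**Figure D3:**
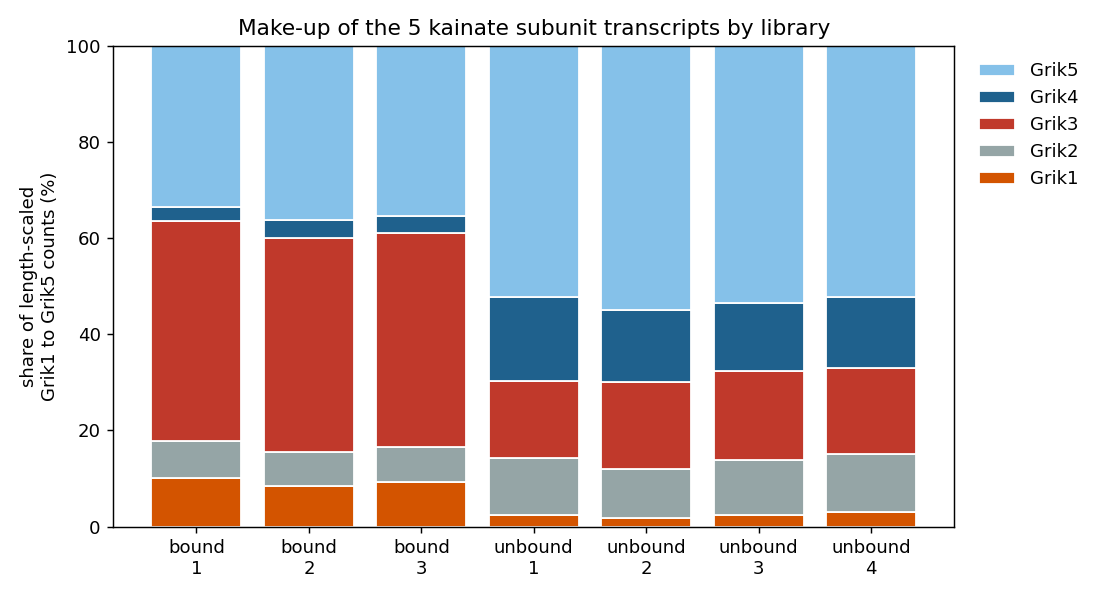
Share (%) of each subunit in the summed length-scaled counts of Grik1 to Grik5, one stacked bar per library. Grik3 took 44.4% to 45.8% in bound and 16.1% to 18.4% in unbound libraries, and Grik5 33.6% to 36.3% in bound and 52.3% to 54.9% in unbound libraries.

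Ratios between genes of the same library do not depend on how libraries are scaled, and 8 were compared with exact permutation tests over libraries. The two-sided p of these tests is the smaller one-sided p doubled. With 35 ways to split 7 libraries into 3 and 4, the smallest they can give is 0.0571, before or after Benjamini-Hochberg adjustment. By this rule no ratio could pass 0.05. The 7 ratios at that p had an adjusted p of 0.0653 over the 8 (exact permutation test). The low-affinity subunits Grik1, Grik2 and Grik3 together over the high-affinity Grik4 and Grik5 stood at 1.75, 1.499 and 1.57 in bound libraries and at 0.434, 0.432, 0.477 and 0.492 in unbound libraries. Low-affinity transcripts thus exceeded high-affinity ones in every bound library and in no unbound library, and did so with the longest transcript and without length scaling too. The log2 difference was 1.81 (exact p = 0.0571, two-sided), equal to 3.50-fold.

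Within the low-affinity class, Grik1 over Grik2 stood at 1.33, 1.23 and 1.29 in bound libraries and at 0.205, 0.175, 0.216 and 0.249 in unbound libraries, a 6.12-fold higher ratio. In counts not scaled by length the ratio was 0.623 to 0.677 in bound libraries and 0.0888 to 0.127 in unbound libraries, so that Grik1 exceeded Grik2 only per length, while the fold between the groups is the same by construction. Grik3 over Grik2 was 3.98-fold higher, with geometric means of 6.17 in bound and 1.55 in unbound libraries. Division by a fixed length leaves in place a trend of counts on exon length that differs between libraries. With that trend removed, the log2 fold changes were 2.65 for Grik1, 0.41 for Grik2 and 2.17 for Grik3. With TMM alone they were 2.40, −0.20 and 1.79, so the folds of both ratios depend on that trend. Within the high-affinity class, Grik4 over Grik5 had geometric means of 0.0944 in bound and 0.287 in unbound libraries and was 3.04-fold lower. These ratios did not overlap between the groups, and each had the smallest p that the test as run can give (exact permutation p = 0.0571, two-sided).

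Neto1 over Neto2 stood at 3.38, 4.56 and 3.65 in bound libraries and at 3.98, 4.77, 4.39 and 4.06 in unbound libraries. The groups overlapped, and the log2 difference of −0.16 was not past the threshold (exact permutation p = 0.286, two-sided). It was −0.07 without bound replicate 1 and −0.29 without bound replicate 2. The 2 Neto genes together over the 5 subunits gave 1.03, 1.003 and 1.10 in bound libraries and 1.22, 1.12, 1.26 and 1.34 in unbound libraries (log2 difference −0.24, exact permutation p = 0.0571, two-sided). The log2 difference was −0.39 without length scaling and −0.16 against the UBS libraries alone. The gap between bound replicate 3 and unbound replicate 2 was small beside the spread of each group.

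**Figure D4:**
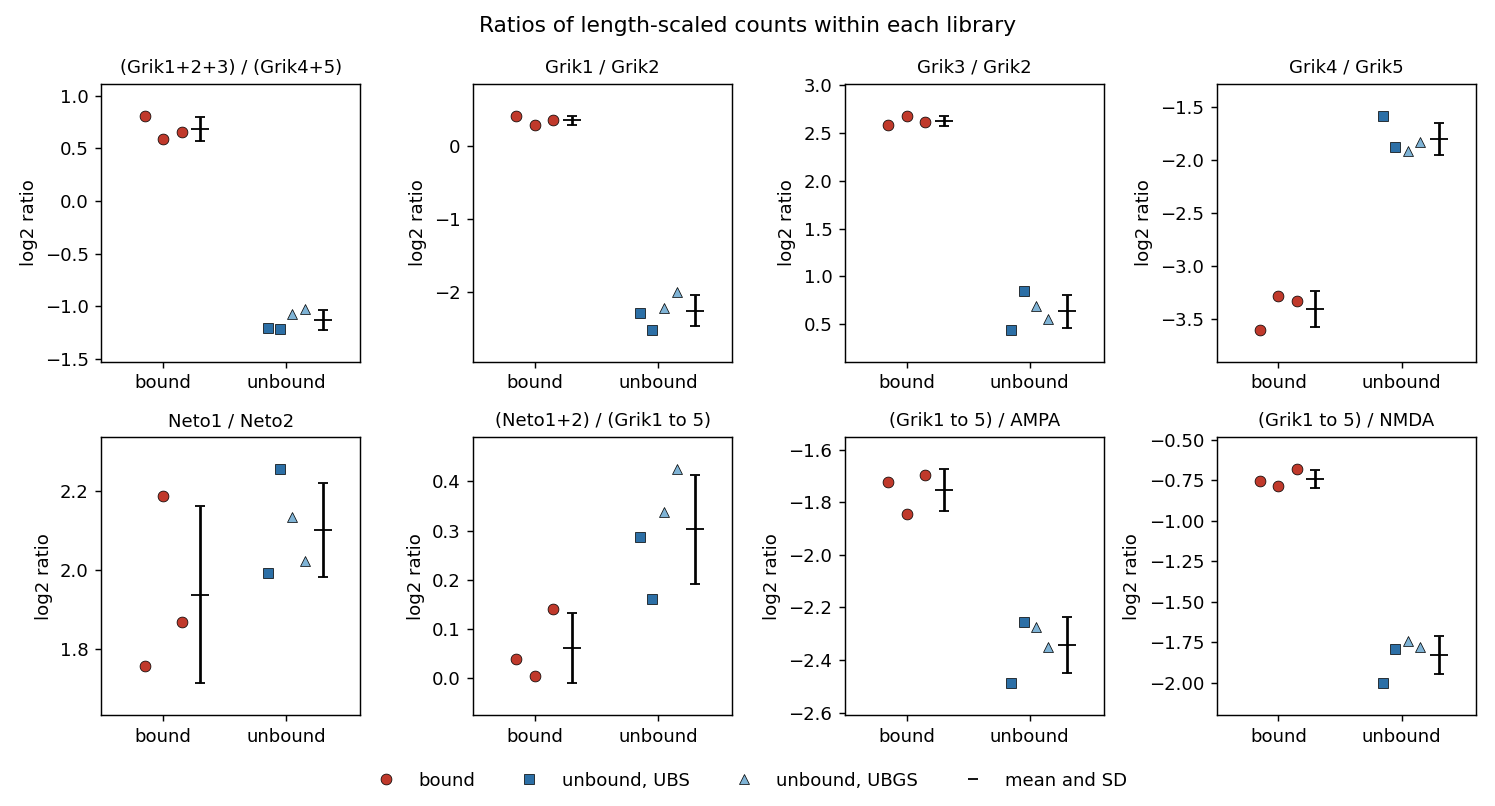
Log2 ratio of length-scaled counts in each library for the 8 ratios, with the mean and SD beside the points and the unbound title series by symbol (the axes do not start at 0). Only Neto1 over Neto2 overlapped between bound and unbound libraries.

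Other ionotropic glutamate receptors were split between the groups too, and were set beside the kainate subunits because all answer the same transmitter. Of 4 AMPA subunits 1 was higher and 2 were lower (median log2 −0.43), where 31% of all genes were higher and 30.7% lower, with Gria4 at 1.02 and Gria2 at −1.41. Of 7 NMDA subunits 3 were higher and 3 lower (median 0.42), with Grin2d at 3.03 and Grin2c at −3.45. Summed length-scaled kainate subunit counts over AMPA subunit counts stood at 0.303, 0.279 and 0.309 in bound libraries and at 0.178, 0.209, 0.207 and 0.196 in unbound libraries, a 1.504-fold higher ratio. Over NMDA subunits the ratio was 0.592, 0.581 and 0.624 in bound and 0.250, 0.289, 0.299 and 0.291 in unbound libraries, 2.13-fold higher. Neither ratio overlapped between the groups (exact permutation p = 0.0571 each, two-sided). The denominators moved as well as the kainate subunits. Not scaled by length, AMPA subunits summed to 1074 to 1150 CPM in bound and 1387 to 1646 CPM in unbound libraries. NMDA subunits summed to 1170 to 1292 CPM in bound and 2374 to 2898 CPM in unbound libraries. The log2 difference over AMPA subunits was 0.59, against 0.97 without length scaling, and over NMDA subunits 1.09, against 1.62 without length scaling and 0.79 with the longest transcript. None of these measures removes the trend of counts on exon length that differs between libraries. Merged exons hold 5168 to 13246 bases for kainate, 6043 to 15548 for AMPA and 3296 to 24842 for NMDA subunits. The part of that trend in both ratios was not tested.

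**Figure D5:**
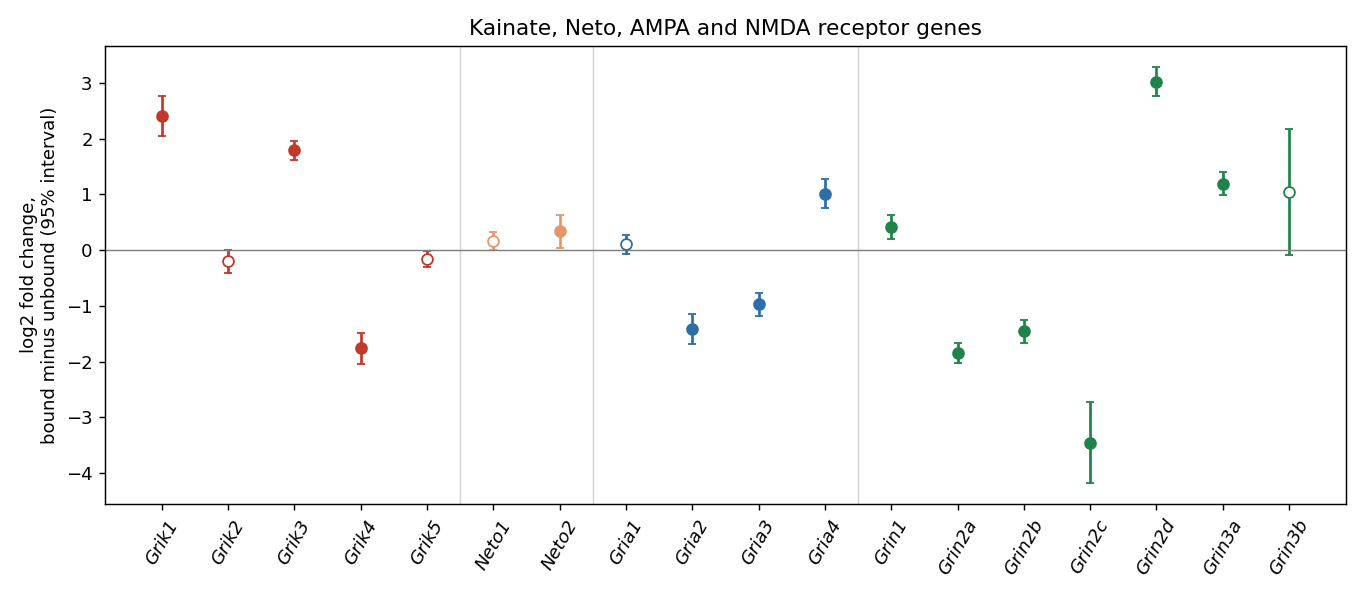
Log2 fold change (bound minus unbound, TMM scaling) of the kainate subunits, Neto genes and AMPA and NMDA subunits, with 95% intervals. Filled points passed the edgeR test and open points did not, and each receptor family held genes on both sides of 0, except the Neto pair, which lay above it with this scaling.

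Genes known from kainate receptor trafficking, scaffolding and modification were also read. Of 21 listed partners 20 had a row and were tested, 7 higher and 9 lower, with a median log2 fold change of −0.03. Over all genes 61.7% were called, 31% higher and 30.7% lower. The higher share of the partners was thus near that of all genes and the lower share was above it, and the list was not tested as a set. Grip2 and Grip1, PDZ scaffold genes, were higher, Grip2 at 47.4 ± 2.68 CPM over bound libraries and 5.74 ± 0.483 CPM over unbound ones (log2 3.04, SE 0.10, edgeR adjusted p = 3.0e-09) and Grip1 at 40.04 ± 5.66 and 17.2 ± 0.718 CPM (1.22). Nrxn3, a presynaptic neurexin, was higher as well, at 575.1 ± 29.5 CPM over bound libraries and 213.1 ± 6.22 CPM over unbound ones (1.43).

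The 3 partners with the largest falls were C1ql2, C1ql3 and Camk2a. C1ql2 and C1ql3 encode secreted proteins that recruit kainate receptors at mossy fibre synapses. C1ql2 stood at 0.431 ± 0.420 CPM over bound libraries and 15.7 ± 2.46 CPM over unbound ones (log2 −5.29, SE 0.47), and C1ql3 at 1.83 ± 0.607 and 37.4 ± 1.21 CPM (log2 −4.36, SE 0.20). C1ql2 was also among the dentate granule cell markers above, and 64.2% of the exon length of C1ql3 overlapped genes on the other strand. Camk2a, a kinase of excitatory synapses and one of the excitatory markers above, was lower (822.2 ± 102.6 CPM over bound libraries and 3426 ± 951.3 CPM over unbound ones, log2 −2.06). Cul3, Dlg4, Kif17 and Snap25 passed no test, at log2 fold changes from −0.04 (Dlg4, which encodes PSD-95) to 0.19 (Kif17).

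Other genes with a like profile were looked for among protein-coding genes with a mean of at least 10 CPM, by the root mean square (RMS) difference of gene-centred log2 CPM over the 7 libraries. This is a description, since the 2 groups shape every profile. The nearest to Grik1 were Sema3c (RMS difference 0.14) and Ndn (0.15), and to Grik3 Evl (0.05) and Ndufs5 (0.06). Nearest to Grik4 were Peak1 (0.06) and Fam53b (0.07). For the genes that differed little, the nearest were D230025D16Rik and Lpgat1 (Grik2), Nisch and Dr1 (Grik5), Uqcrc2 and Shroom2 (Neto1) and Cops3 and Sema6a (Neto2), at RMS differences of 0.03 to 0.08. Sema3c, the nearest to Grik1, stood at 32.8 ± 4.15 CPM over bound libraries and 6.06 ± 1.22 CPM over unbound ones.

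The unbound libraries fall into 2 title series, and the members were compared between them. None of the 7 was called in the test of 2 UBS libraries against 2 UBGS libraries (edgeR adjusted p from 0.37 to 0.82, unadjusted p from 0.091 to 0.62, and none by DESeq2), where 0.229% of 19256 genes were. Grik1 had the largest difference, at log2 −0.36 (SE 0.20), and Grik4 stood at 0.20 (SE 0.10). The count rested on single libraries. Without unbound replicate 1, Grik1, Grik2, Neto1 and Neto2 were lower in UBS than in UBGS (log2 −0.59, −0.18, −0.16 and −0.33, edgeR adjusted p = 0.013, 0.033, 0.023 and 0.0039), and without unbound replicate 2 Grik4 was higher (0.31, edgeR adjusted p = 0.0028). Those fits called 23.5% and 36.9% of all genes, with the spread taken from the UBGS pair alone. Without unbound replicate 2, Grik1 (−0.14), Grik2 (0.04), Neto1 (−0.08) and Neto2 (0.01) were not called, and the sign of Grik2 and Neto2 turned. Set against either series alone, Grik1, Grik3 and Grik4 kept their calls and directions.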

How the data were processed

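The deposited table holds raw read counts per Ensembl gene ID for 7 mouse hippocampal TRAP libraries, whole numbers named as raw counts per the labels. Per the submitters' processing notes, alignment and counting involved STAR 2.5.3a, HTSeq with no version and mm10. The strand setting and annotation release are not given in the sources used. GENCODE M21 named 37607 of 39017 IDs. Groups follow the treatment label, and replicates are numbered in accession order, which pairs nothing.

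Counts were filtered (filterByExpr by group), scaled by TMM and tested with edgeR 4.0.16 in R 4.3.3 (glmQLFit robust, glmQLFTest, no covariates), adjusted by Benjamini-Hochberg over all genes, with a threshold of 0.05. Log2 fold changes are bound minus unbound, SE comes from the F statistic, and intervals use the t distribution. Ratios used counts divided by merged exon length and exact permutation tests (scipy 1.17.1). The script was tested on simulated data for 19563 genes in 3 and 4 libraries: 58 of 100 genes with a 1 log2 change were found, 84 of 100 with a 2 log2 change, and 5 unchanged genes were called. No library was a copy of another, as chi-square per degree of freedom between libraries of a group was 5.57 to 46.3. The 5.57 was that of unbound replicates 3 and 4, the UBGS pair, and every other pair was at 25.0 or more. Named genes are the 7 members, the 3 partners with the largest rise and fall, the extremes of each receptor family, and the 2 nearest profiles per member. The members and lists were chosen with earlier results of these data known. Klhl17, a listed partner, had no row under its symbol. Some listed genes are not reported here. Alternatives were other scalings, DESeq2 1.42.0, no filter, a length offset, each unbound series alone and each library left out. Sequences were aligned with Biopython 1.88.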

Additional observations from a re-analysis of the deposited data

How the results depend on the processing

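Grik1, Grik3 and Grik4 kept their direction and call in all 15 alternatives, with log2 fold changes of 2.26 to 2.84, 1.76 to 2.22 and −1.86 to −1.33. Library totals gave 6 members higher, where 47.5% of all genes were, and turned Grik2 (0.24) and Grik5 (0.27), with Neto1 at 0.60. Relative to the median of all genes, Grik2 stood at −0.19 with both scalings, and Grik5 at −0.16 with library totals and −0.15 with TMM. The length offset gave 5 higher, where 27.3% of all genes were, and turned Grik2 (0.41), with Neto1 at 0.51. Totals without mitochondria-encoded genes and Gm42418, RLE factors and DESeq2 each gave 2 members lower, with Grik5 at −0.17, −0.19 and −0.19. The share of all genes called lower was 31.3%, 31.7% and 28.8%, in that order. Neto2 missed the threshold with RLE factors (0.31), DESeq2 (0.31) and the UBS or UBGS libraries alone (0.42 and 0.28). Leaving out 1 library gave 2 to 4 members higher and 1 to 2 lower. Those fits called 28.7% to 31.3% of all genes higher and 27.4% to 29.9% lower. The log2 fold changes ranged from −0.25 to −0.13 for Grik2, −0.18 to −0.13 for Grik5, 0.12 to 0.21 for Neto1 and 0.26 to 0.49 for Neto2. Neto1 passed the threshold without bound replicate 2 or unbound replicate 1, and Grik5 without bound replicate 3. The cause was not tested. Ratio differences kept their direction in all 11 alternatives each, and those that moved by over 1.5 times are given above with their values. For ratios of 1 gene over another, the other length measures cannot change the difference, and no alternative for ratios used the length offset. Genes called between bound and unbound libraries numbered 9868 to 13004. Between UBS and UBGS, 44 genes differed, 22 with library totals, 104 with no filter, 282 with DESeq2, and 16 to 7389 without 1 library, with 0 to 4 members among them (7389 of 20003 genes without unbound replicate 2, 4684 of 19966 without unbound replicate 1). There the lone library of a series was assumed to vary like the others. Depth limits Grik1 most among the members, at 177 to 273 counts in unbound libraries.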
